A study of Mus musculus with 15 samples.

Results

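Interferon-stimulated genes are the antiviral and immune effectors that a cell makes after type I interferon binds its receptor. This set held 43 gene symbols, chosen by name as genes of the type I interferon response, at a time when earlier results of these data were known. All 43 had a row among the 56832 genes of the count table. All 43 also passed the filter on low counts, and so did 17204 genes in all. The libraries came from bone marrow mesenchymal stromal cell (MSC) cultures of mice that lacked the taurine transporter TauT, the product of Slc6a6, and of wild-type mice. The question addressed was how loss of taurine uptake alters the transcriptome of these cells.

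WT denotes TauT+/+ and TauT KO denotes TauT-/- MSCs, both on a C57BL/6J background, and the knockout was present in the whole animal rather than in one cell type. The mice were 16 weeks old. MSCs from long bones were cultured, and CD45- cells were taken by magnetic sorting before RNA extraction. There were 4 WT and 4 TauT KO libraries labelled male, and 3 WT and 4 TauT KO libraries labelled female, which gave 7 WT against 8 TauT KO libraries. The labels do not say whether each library came from its own animal, so the p-values measure the spread between these libraries, which may be partly technical.

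In a stimulated cell, interferon alpha and beta signal through the receptor chains Ifnar1 and Ifnar2 and the kinases Jak1 and Tyk2 to a complex that includes Stat2 and Irf9, which binds a short element in the promoters of their target genes. Interferon gamma uses its own receptor and acts through a different element, and many targets, the guanylate-binding proteins among them, answer to both. Constant low interferon signalling without infection is known as tonic interferon signalling, and low expression of these genes does not by itself show it.

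The female-labelled libraries held 12761107 to 20781070 counts and the male-labelled libraries 69764291 to 101575071, so labelled sex and depth cannot be told apart. Slc6a6 itself was at 1571 ± 712 CPM (reads of a gene relative to the adjusted library total, mean ± SD, n = 7) in WT and 806 ± 399 CPM (n = 8) in TauT KO, with overlapping ranges of 592 to 2591 and 401 to 1521 CPM. In 3 of the 15 libraries, WT male 1, WT female 3 and TauT KO male 1, the balance of sex-linked transcripts did not match the label. TauT KO male 1 and TauT KO female 1 were the closest of the 105 pairs of libraries, with a typical log2 difference per gene of 0.116 where counting error gives 0.0676. WT male 1 and WT female 1 came next at 0.128 (0.0708 from counting error), and the following pair was at 0.289. The results on the members are therefore also given without 1 library of each pair and without the 3 mismatched libraries.

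The promoters show what the members share beyond their names. The core of the interferon-stimulated response element was searched as the letters GAAANNGAA on both strands of the RefSeq promoters (GRCm38.p6 table), each of which runs from 250 bases before to 50 bases after a transcription start. Of the 43 members, 33 had between them 40 promoters in that table. The element was held by 20 of the 40 (50%), against 8.56% of all 32851 promoters of the same length. Counted by gene, 19 of the 33 members held it in at least 1 promoter (57.6%), against 8.81% of the 11872 tested genes with a promoter in the table. The gamma-activated site, searched as TTCNNNGAA, was held by 10 of the 40 member promoters (25%) against 8.3% of all promoters, and the 2 patterns may overlap within a promoter. A match of letters is a description and not evidence of binding.

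DESeq2 called 3 members lower and 2 higher, near its shares of all genes (6.5% and 5.53%), and edgeR called 0. Promoter stretches are shown for 7 members, these 5 and Ifit1 and Isg15, which are widely used as readouts of the response. Each is written 5′ to 3′ on the strand of its gene, with GRCm39 coordinates from an exact and single match in the genome, and capitals mark the letters that match the response element on either strand.
Gbp2, chr3:142326356-142326384 (+): ctcttttagtTTCACTTTCactgtcttaa
Gbp3, chr3:142265754-142265782 (+): acacagtTTCAGTTTCTATTTCccagatc
Gbp7, chr3:142236035-142236063 (+): tgtgtgcagtTTCAGTTTCagttctccat
Oas3, chr5:120915770-120915814 (-): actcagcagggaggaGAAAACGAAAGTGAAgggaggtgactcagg
Ifitm2, chr7:140535902-140535930 (-): ccaccaacagGAAAAGGAAattgctagag
Ifit1, chr19:34618165-34618228 (+): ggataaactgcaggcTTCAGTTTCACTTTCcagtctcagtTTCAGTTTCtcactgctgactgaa
Isg15, chr4:156285318-156285368 (-): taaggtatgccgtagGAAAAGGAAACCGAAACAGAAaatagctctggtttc
All 7 lie upstream of the RefSeq start. In the GENCODE M39 annotation the stretches of Gbp2, Gbp3 and Ifitm2 lie within an exon of a longer model of their own gene, that of Gbp7 overlaps one by 20 bases, and those of Oas3, Ifit1 and Isg15 lie outside every exon of the gene. The element was thus present both in members that DESeq2 called lower (Gbp2, Gbp3 and Gbp7) and in members that it called higher (Ifitm2 and Oas3).

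Most members had lower values in TauT KO than in WT MSCs, but the differences were small beside the spread between libraries. The log2 fold change (TauT KO minus WT, with labelled sex in the model) was below 0 for 32 members and above 0 for 11, with a median of -0.35. Over all genes tested, 8888 of 17204 were below 0 and the median was -0.015. No member passed an adjusted p of 0.05 in edgeR's quasi-likelihood test in either direction, where 0.75% of all genes were called lower and 0.546% higher, and the smallest adjusted p of a member was 0.0807, for Gbp2. At an unadjusted p under 0.05 there were 6 members lower and 4 higher, against 13% and 10.6% of all genes. In this fit the share of members past that limit was thus close to that of all genes, but the count changed with the libraries used, as given below.

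DESeq2 called 3 members lower (Gbp2, Gbp3 and Gbp7) and 2 higher (Ifitm2 and Oas3), where 6.5% and 5.53% of the 17489 genes with an adjusted p were called. limma with voom and quality weights called 2 members lower (Gbp2 and Irf1) and 0 higher, where it called 4.12% of all genes lower and 3.55% higher. In 0 members did the TauT KO libraries lie entirely outside the range of the WT libraries, against 1.13% of all genes. RNA from a mixed culture cannot separate fewer cells of a type from less RNA per cell, which holds for every value given here.

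**Figure D1:**
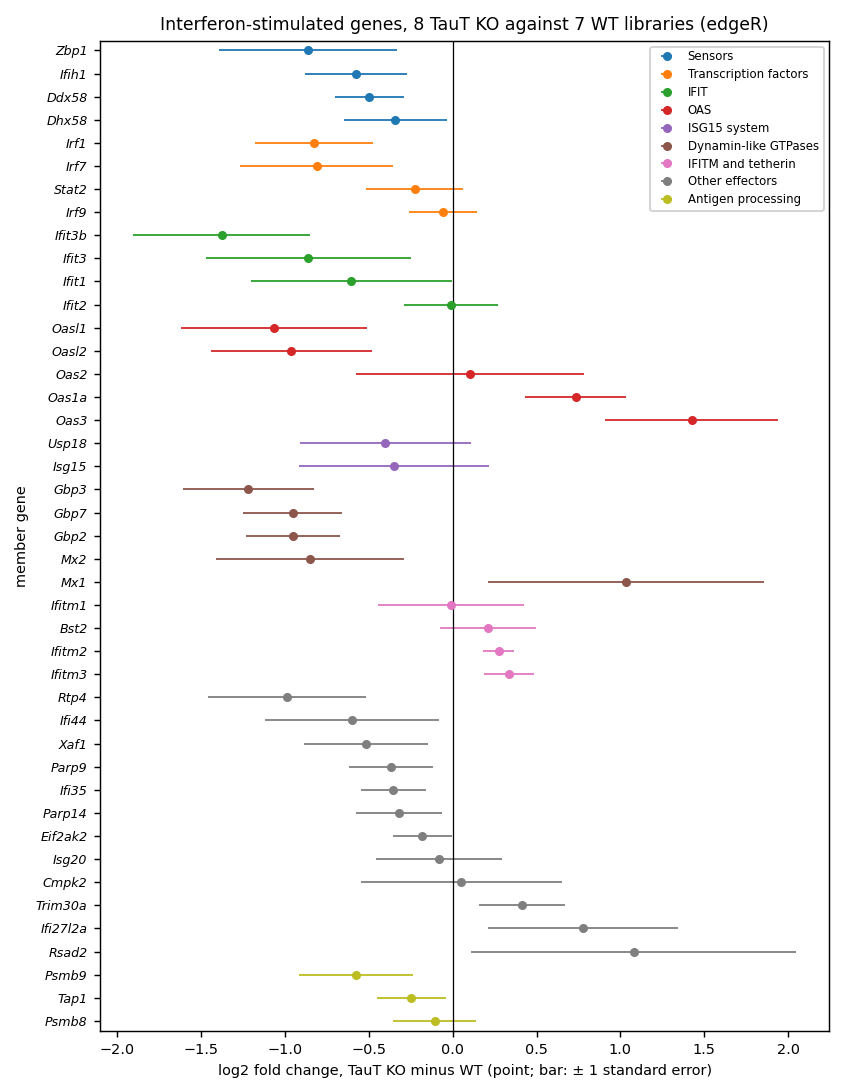
Each point is a member's log2 fold change between 8 TauT KO and 7 WT libraries from edgeR, with a bar of 1 standard error, grouped by class and coloured by class. Of the 43 points, 32 lie left of 0 and 11 right of it, and the guanylate-binding proteins Gbp2, Gbp3 and Gbp7 sit near -1.

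The classes differed in direction of value. All 4 sensors, all 4 transcription factors, all 4 IFIT genes, both genes of the ISG15 system and all 3 antigen processing genes were below 0. The dynamin-like GTPases had the lowest median log2 fold change, -0.95, with 4 of 5 members below 0. Above 0 were the medians of the OAS family (0.10, with 3 of 5 members above 0) and of the IFITM and tetherin group (0.24, with 3 of 4 above 0). The other effectors had 8 members below and 4 above 0, with a median of -0.25.

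The sensors recognise viral nucleic acid in the cytoplasm. Ddx58, which encodes RIG-I, the receptor for short double-stranded and 5′-triphosphate RNA, ranged from 39.6 to 89.2 CPM in WT (median 60.2) and from 27.7 to 74.6 CPM in TauT KO (median 40.6). TauT KO male 1 and TauT KO female 1, 3 and 4 lay below every WT library, whereas TauT KO male 2 was exceeded only by WT male 2. The log2 fold change of Ddx58 was -0.50 ± 0.20 (SE), with an edgeR adjusted p of 0.161. Ifih1 (MDA5, which senses long double-stranded RNA), Dhx58 (LGP2, their regulator) and Zbp1 (a sensor of Z-form nucleic acid) had log2 fold changes of -0.58, -0.34 and -0.86, with edgeR adjusted p from 0.265 to 0.524.

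Among the transcription factors, Irf1, which drives interferon-gamma and tonic targets, ranged from 33.6 to 101 CPM in WT (median 94.2) and from 17.6 to 114 CPM in TauT KO (median 34.1). Its 2 genotypes were set apart except for 3 libraries: WT male 3 lay among the TauT KO values, and TauT KO male 4 and TauT KO female 4 (114 and 69.7 CPM) lay among or above the WT values. The log2 fold change was -0.83 ± 0.35 with an edgeR adjusted p of 0.173. With voom weights it was -1.25 with an adjusted p of 0.0241.
Irf7, the factor that amplifies interferon alpha production, was at -0.81 ± 0.46 on the same scale. Stat2 and Irf9, partners in the complex that binds the response element, were at -0.23 ± 0.29 and -0.06 ± 0.20, and edgeR adjusted p for these 3 genes ran from 0.299 to 0.894. Stat2 was highest in WT male 4 at 125 CPM, where no other library exceeded 69.0 CPM.

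The IFIT proteins bind foreign RNA and block its translation, and their genes lie side by side on chromosome 19. Ifit3b ranged from 0.585 to 7.09 CPM in WT (median 1.46) and from 0.528 to 3.36 CPM in TauT KO (median 0.665). Only WT male 2, WT male 4 and WT female 2 exceeded all TauT KO libraries, and the other WT libraries lay within the TauT KO range. The log2 fold change was -1.38 ± 0.53 with an edgeR adjusted p of 0.138, and the counts of Ifit3b fell as low as 8 in a library. Ifit3b shared 27.2% of the 100-base windows of its transcript with Ifit3, and Ifit3 26.6% with Ifit3b, so the division of reads between both genes is uncertain.
Ifit1 spanned 1.69 to 43.2 CPM in WT (median 9.83) and 2.66 to 20.3 CPM in TauT KO (median 4.88), at a log2 fold change of -0.60 ± 0.60 and an edgeR adjusted p of 0.565. Without WT male 4 it was at -0.15 (adjusted p = 0.899). The lowest and the highest of all 15 libraries for Ifit1 were both WT, WT male 3 and WT male 4. Ifit2 showed a log2 fold change of -0.01 ± 0.28 and Ifit3 of -0.86 ± 0.61.

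The OAS family makes 2′-5′ oligoadenylates that activate RNase L, and the Oasl genes encode relatives that lack this activity or have other roles. Within it the signs were split. Oas3 lay between 0.222 and 3.63 CPM in WT (median 2.14) and between 2.03 and 11.3 CPM in TauT KO (median 4.88). TauT KO male 1, TauT KO male 3 and TauT KO female 1 were inside the WT range, and every other TauT KO library was above all WT libraries. Oas3 had a log2 fold change of 1.42 ± 0.51, with an adjusted p of 0.121 in edgeR and 0.0345 in DESeq2.
Oas1a was at 2.29 to 8.03 CPM in WT (median 4.63) and 4.14 to 13.1 CPM in TauT KO (median 9.22), a log2 fold change of 0.73 ± 0.30 with an edgeR adjusted p of 0.160. The same 3 TauT KO libraries as for Oas3 lay within the WT range and the others above it, and TauT KO male 1 and TauT KO female 1 among them are the closest pair of libraries. Oas1a shared 40.3% of its windows with other genes, most with Oas1g, so its count is uncertain.
Oasl2 went the other way in value, with 3.60 to 53.6 CPM in WT (median 26.2) and 5.2 to 30.6 CPM in TauT KO (median 11.2). Its highest TauT KO libraries, male 2 and male 4, lay in the middle of the WT values, and its lowest library was WT male 3. Its log2 fold change was -0.96 ± 0.48 with an edgeR adjusted p of 0.237. Oasl1 was at -1.07 ± 0.55 and Oas2 at 0.10 ± 0.68.

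Isg15 encodes the ubiquitin-like protein that is conjugated to newly made proteins, and Usp18 the protease that removes it and dampens receptor signalling. Isg15 ranged from 2.20 to 35.4 CPM in WT (median 9.37) and from 2.41 to 23.6 CPM in TauT KO (median 6.65). The genotypes overlapped almost throughout, with WT male 4 and TauT KO male 2 at the top and WT male 3 and TauT KO female 1 at the bottom. The log2 fold change of Isg15 was -0.35 ± 0.57 (edgeR adjusted p = 0.744), and without WT male 4 it was 0.067. Usp18 was at -0.40 ± 0.51.

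The guanylate-binding proteins, large GTPases that coat and break open pathogen vacuoles, had the smallest p-values of the set, and Gbp2, Gbp3 and Gbp7 are neighbours on chromosome 3. Gbp2 lay between 42.7 and 153 CPM in WT (median 122) and between 33.4 and 68.3 CPM in TauT KO (median 56.7). WT male 3 and WT male 4 lay inside the TauT KO range, and every other WT library was above every TauT KO library. Gbp2 had a log2 fold change of -0.95 ± 0.28, a 1.93-fold lower value in TauT KO, with an adjusted p of 0.0807 in edgeR and 0.0213 in DESeq2.
For Gbp7, WT libraries spanned 6.79 to 32.1 CPM (median 15.4) and TauT KO libraries 5.11 to 12.5 CPM (median 6.41). WT male 3 and WT female 3 lay among the TauT KO values and the remaining WT libraries above them. Gbp7 had a log2 fold change of -0.95 ± 0.30, with an adjusted p of 0.0874 in edgeR and 0.0277 in DESeq2. Of its windows, 10.1% were shared with an unnamed gene model, so its count carries some uncertainty.
Gbp3 was measured at 5.66 to 43.3 CPM in WT (median 19.7) and 3.41 to 17.1 CPM in TauT KO (median 6.86). Here WT male 3, WT female 2 and WT female 3 were within the TauT KO range and the other WT libraries above it. Gbp3 had a log2 fold change of -1.22 ± 0.39, with an adjusted p of 0.0942 in edgeR and 0.0314 in DESeq2. Without WT male 3, edgeR called Gbp2, Gbp3, Gbp7 and Ifit3b lower, at adjusted p of 0.0268, 0.0296, 0.0259 and 0.0482, and 4.88% of all genes were then called lower.
Mx1 and Mx2 are dynamin-like proteins, of which Mx1 is defective in C57BL/6 mice. Mx1 was near the floor of detection, at most 0.215 CPM in WT and 0.938 CPM in TauT KO. Mx2 was low, at most 2.80 CPM in WT and 1.88 CPM in TauT KO, with a log2 fold change of -0.85 ± 0.56.

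**Figure D2:**
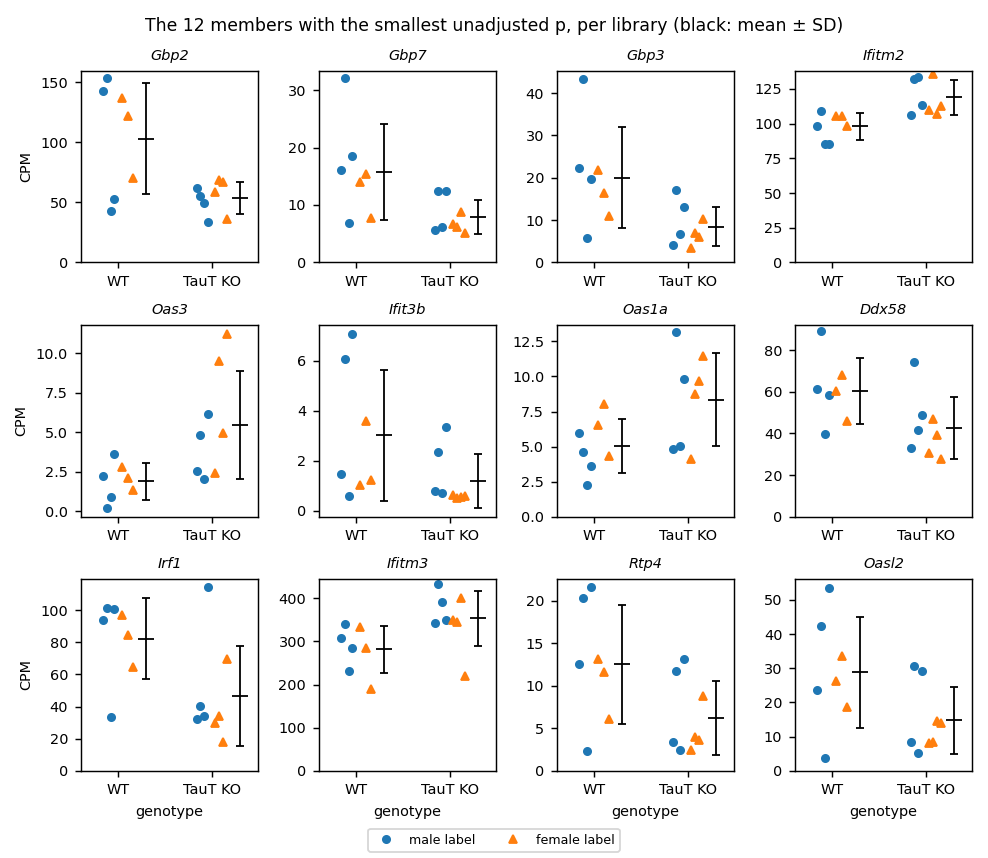
Each panel shows the CPM of one of the 12 members with the smallest unadjusted p in the 7 WT and 8 TauT KO libraries, with circles for male and triangles for female labels and the mean ± SD in black. The WT and TauT KO libraries overlap in every panel, for Ifitm2 only from 106 to 109 CPM.

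The IFITM proteins, small membrane proteins that stop virus fusion, had higher values in TauT KO for 2 of 3 genes. Ifitm2 was at 85.0 to 109 CPM in WT (median 98.2) and 106 to 136 CPM in TauT KO (median 113). The overlap came from WT male 2, which lay above TauT KO male 1 and TauT KO female 3, and all other WT libraries were below all TauT KO libraries. Ifitm2 had a log2 fold change of 0.28 ± 0.09, with an adjusted p of 0.103 in edgeR and 0.0232 in DESeq2. Ifitm2 shared 21.9% of its windows with an unnamed gene model, so its count is uncertain.
For Ifitm3, WT libraries covered 191 to 341 CPM (median 285) and TauT KO libraries 220 to 432 CPM (median 349). TauT KO female 4 alone lay inside the WT range, and the other TauT KO libraries were above every WT library. Ifitm3 had a log2 fold change of 0.34 ± 0.15 with an edgeR adjusted p of 0.196. Ifitm1 (-0.01 ± 0.44) and Bst2, which encodes tetherin and holds budding virus at the cell surface (0.21 ± 0.29), had log2 fold changes within their standard errors of 0.

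Per kilobase of exon, Ifitm3 was the most abundant member, at 220 ± 42.7 CPM per kb in WT and 276 ± 49.3 in TauT KO. Ifitm2 followed at 98.2 ± 9.64 and 119 ± 12.8, and Bst2 at 64.3 ± 20.8 and 73.6 ± 37.2, and the SDs of Ifitm2 and Bst2 overlapped in TauT KO only. Gbp2 came next at 40.2 ± 18.1 and 21.0 ± 5.19 CPM per kb, and its SD met that of Bst2 in WT only. From Gbp2 down to Oasl1 the SDs of each gene and the next overlapped in both genotypes, so that part of the order is not resolved. Mx1 was the lowest, with a mean of 0.0519 CPM per kb over all libraries.

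Among the other effectors, Rtp4, a chaperone-like protein that inhibits viral replication, ranged from 2.31 to 21.6 CPM in WT (median 12.6) and from 2.46 to 13.2 CPM in TauT KO (median 3.81). WT male 3 was the lowest of all libraries, so every TauT KO library lay within the WT range. TauT KO male 2, male 4 and female 4 also lay above WT female 3. Rtp4 had a log2 fold change of -0.99 ± 0.47 with an edgeR adjusted p of 0.219. Eif2ak2, which encodes PKR, the kinase that stops translation on double-stranded RNA, lay between 34.7 and 73.1 CPM in WT (median 52.5) and between 24.6 and 55.2 CPM in TauT KO (median 49.4). Its log2 fold change was -0.18 ± 0.18 (edgeR adjusted p = 0.559), and the genotypes overlapped from 34.7 to 55.2 CPM.
The remaining 10 genes of this class had log2 fold changes from -0.60 (Ifi44) to 1.08 (Rsad2), and none had an edgeR unadjusted p under 0.05. Rsad2, which encodes viperin, had a value of 27.1 CPM in TauT KO female 4 and at most 3.39 CPM in every other library.

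The antigen processing genes supply peptides to MHC class I. Psmb8, a catalytic subunit of the immunoproteasome, was at 27.0 to 105 CPM in WT (median 78.5) and 48.8 to 89.6 CPM in TauT KO (median 56.0). WT held both the lowest library, WT male 3, and the highest, WT male 2. Psmb8 had a log2 fold change of -0.11 ± 0.25 with an edgeR adjusted p of 0.827. Psmb9, its partner subunit, and Tap1, of the peptide transporter, were at -0.57 ± 0.34 and -0.25 ± 0.21.

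Much of the variation lay between libraries of the same genotype. WT male 3 was the lowest of all 15 libraries for 26 of the 43 members and lay below the WT median for 41 of them, with a median log2 difference of -1.08. WT male 4 was the highest library for 16 members, WT male 2 for 11 and TauT KO female 4 for 7. TauT KO male 3 lay below the WT median for 40 members, whereas TauT KO male 2 and TauT KO male 4 each lay above it for 30.
The mean log2 level of the 43 members was 3.72 ± 0.60 (SD) in WT, from 2.59 in WT male 3 to 4.38 in WT male 4. In TauT KO it was 3.45 ± 0.49, from 2.88 in TauT KO male 3 to 4.06 in TauT KO male 2. Summed over members, the level was 1387 ± 382 CPM in WT and 1252 ± 211 CPM in TauT KO. By either measure the genotype means differed by less than 1 SD of either genotype. The sum gives most weight to abundant members, among them Ifitm3 (mean 282 CPM in WT and 354 in TauT KO) and Ifitm2 (98.1 and 119 CPM). Without these 2 genes, which were higher in TauT KO, the sum ran from 460 to 1376 CPM in WT. In TauT KO it ran from 539 to 1107 CPM. The median biological coefficient of variation in edgeR was 0.498 for the members and 0.345 for all genes, and above a mean of 10 CPM it was 0.393 for 26 members and 0.238 for 9527 genes.

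**Figure D3:**
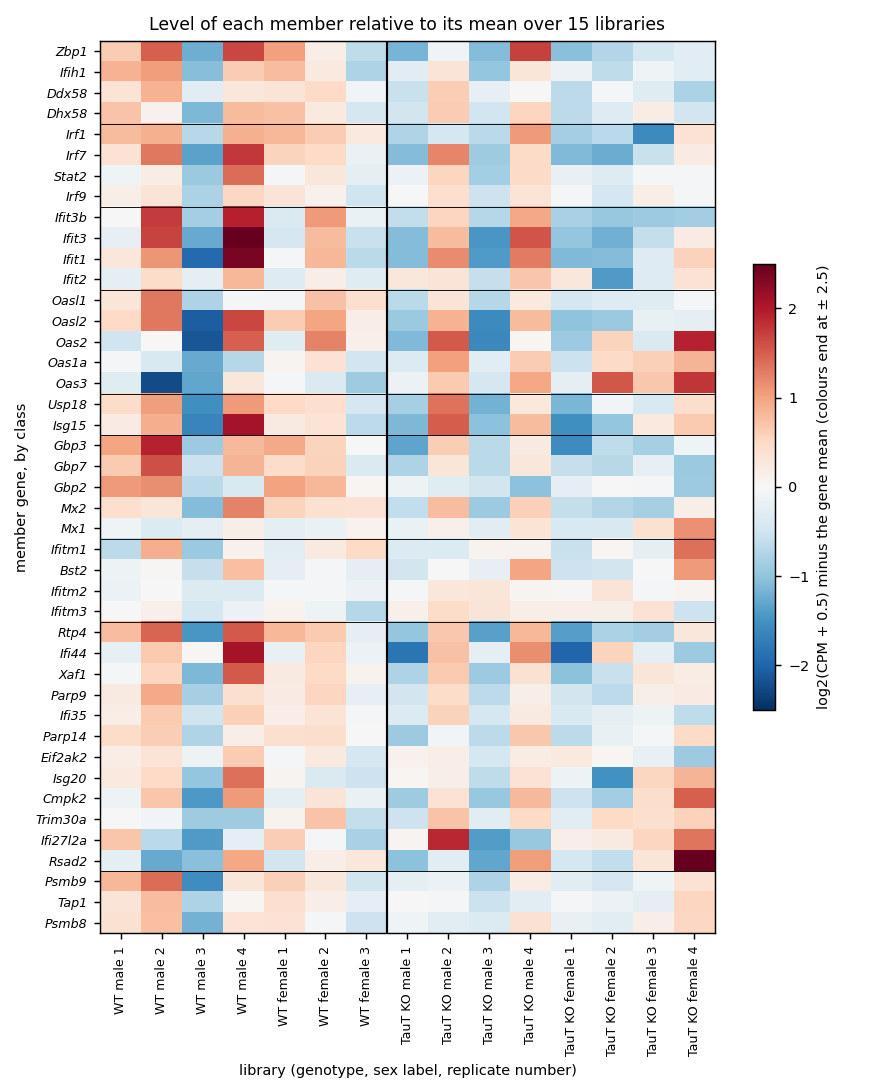
Rows are the 43 members by class and columns the 15 libraries, and colour gives log2(CPM + 0.5) minus the gene's mean over all libraries. The columns of WT male 3, TauT KO male 1, TauT KO male 3 and TauT KO female 1 are mostly blue and those of WT male 2, WT male 4, TauT KO male 2 and TauT KO male 4 mostly red. Oas3, Oas1a, Ifitm2 and Ifitm3 are among the rows that are redder in TauT KO.

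The comparison was also made within each sex label. In the male-labelled libraries 34 members were below 0 and in the female-labelled libraries 28, and edgeR called 0 members in either, as it called 0% of all genes in the male-labelled and 0% in the female-labelled comparison. At an unadjusted edgeR p under 0.05 the male-labelled libraries had Gbp2 and Gbp7 lower and Ifitm2 and Oas1a higher, where 4.52% and 4.1% of all genes were lower and higher. The female-labelled libraries had Ddx58, Gbp2, Gbp3 and Ifit3b lower and Oas3 higher, where the shares of all genes were 7.75% and 6.89%. DESeq2 called 0 members in either label, while it called 76 genes in the male-labelled and 410 in the female-labelled libraries. Gbp2 was at a log2 fold change of -0.97 in male-labelled and -0.93 in female-labelled libraries, and Gbp3 at -1.15 and -1.30. Oas3 was at 1.16 and 1.75. A test of the difference between labels gave 0 members at an unadjusted edgeR p under 0.05, and 0 called by DESeq2. Of all genes, edgeR called 0 and DESeq2 2 in that test, and the share of all genes at the unadjusted limit was not counted. The absence of calls therefore does not show that the members behaved alike under both labels.

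The pathway upstream of the members was also measured. Of 11 interferon genes, 0 passed the filter on low counts and 7 had 0 counts in every library, while Ifnb1 and Ifng had a total of 1 read each over all 15 libraries. The receptor chains were present, with Ifnar1 at 96.2 ± 15.7 CPM in WT and 102 ± 13.7 CPM in TauT KO and Ifnar2 at 66.3 ± 20.4 and 61.3 ± 8.74 CPM. On the log2 scale TauT KO minus WT came to 0.07 ± 0.12 for Ifnar1 and -0.11 ± 0.18 for Ifnar2 (edgeR adjusted p = 0.753 and 0.734).
Over the 6 receptor genes and 4 inhibitors of the pathway, edgeR and DESeq2 called 0 in either direction. At an unadjusted edgeR p under 0.05 each of these lists had 1 gene lower and 1 higher, against 13% and 10.6% of all genes.

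Of 13 genes of nucleic acid sensing upstream of interferon, 4 were below and 9 above 0. edgeR called 0 of them, with 1 lower and 6 higher at an unadjusted p under 0.05 (13% and 10.6% of all genes). DESeq2 called Irf3 lower and Cgas, Tlr7 and Tlr9 higher, where it called 6.5% of all genes lower and 5.53% higher. Irf3, the factor that switches on interferon beta, was at 52.5 ± 8.56 CPM in WT and 40.0 ± 4.60 CPM in TauT KO (DESeq2 adjusted p = 0.0123). Tlr7, an endosomal RNA receptor of myeloid cells, was at 31.3 ± 15.1 and 75.5 ± 25.9 CPM (DESeq2 adjusted p = 0.0112). Irf8, a factor of the myeloid lineage, was at 26.9 ± 9.87 and 56.5 ± 29.1 CPM, and DESeq2 called it higher at an adjusted p of 0.0306 while edgeR gave 0.0976.

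A further 49 interferon-induced genes outside the set were listed, among them Gbp4, Gbp5 and Gbp6 and several immunity-related GTPases. Of the 48 tested, 37 were below and 11 above 0, with a median log2 fold change of -0.37. edgeR called 0, and at an unadjusted p under 0.05 there were 12 lower and 4 higher, against 13% and 10.6% of all genes. The DESeq2 shares of all genes were 6.5% called lower and 5.53% higher. DESeq2 called 5 lower, Gbp5, Iigp1, Tgtp2, Ifi47 and Sp100, of which all but Sp100 encode GTPases strongly induced by interferon gamma.
Iigp1 was at 47.0 ± 40.2 CPM in WT and 7.51 ± 7.09 CPM in TauT KO, a log2 fold change of -2.68 ± 0.67 with an adjusted p of 0.0597 in edgeR and 0.00129 in DESeq2. Its libraries spanned 2.23 to 121 CPM in WT and 2.09 to 24.4 CPM in TauT KO. Gbp5 was at 13.4 ± 9.28 and 3.22 ± 1.90 CPM, a log2 fold change of -2.08 ± 0.55 with an adjusted p of 0.0637 in edgeR and 0.00399 in DESeq2. The ranges of both genes overlapped between the genotypes, and both were highest in WT male 2.

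Markers of the cell types that the cultures could hold were compared next. Stromal markers were present in every library, with a sum of 26245 to 45949 CPM in WT and 4427 to 37829 CPM in TauT KO, and 10 of 11 were below 0 (edgeR called 0 and DESeq2 2, with 3 lower at an unadjusted edgeR p under 0.05). Macrophage markers were also present although CD45- cells had been selected, and Ptprc, which encodes CD45, was at 27.9 to 179 CPM in WT and 114 to 370 CPM in TauT KO. Of the 18 macrophage markers, 17 were above 0, edgeR called 2 higher (Cd68 and Ctss) and DESeq2 8, and the median log2 fold change was 0.91. Their sum was 1491 to 10305 CPM in WT (median 8746) and 7189 to 24025 CPM in TauT KO (median 16792). Each of the 18 was detected in every library. Beside these marker counts, edgeR called 0.75% of all genes lower and 0.546% higher, and DESeq2 6.5% and 5.53%. At an unadjusted edgeR p under 0.05, 13% of all genes were lower.
The library with the lowest macrophage sum, WT male 2, had the highest summed level of the members, 1819 CPM. By mean log2 level WT male 4 was the highest, at 4.38 against 4.18 in WT male 2. WT male 3 had the lowest summed level of the members, 775 CPM, and a macrophage sum of 9752 CPM. Other libraries went the other way. TauT KO male 1 and female 1 had macrophage sums of 7189 and 7802 CPM, the lowest in TauT KO, with member sums of 1068 and 1067 CPM. TauT KO male 4 had a macrophage sum of 16755 CPM and a member sum of 1568 CPM. With the mean macrophage level as a covariate, the median log2 fold change of the members was -0.33 and edgeR called 0 members and 0 of all genes, with 0 members lower and 2 higher at an unadjusted p under 0.05 (6.61% and 4.39% of all genes). In that fit Oas3 was at 0.45, Oas1a at 0.48 and Gbp7 at -0.55 on the log2 scale, and Gbp2, Gbp3 and Ifitm2 at -0.69, -0.96 and 0.29. The mean macrophage level itself differed by genotype, at 7.26 ± 1.01 in WT and 8.30 ± 0.59 in TauT KO (log2 scale, mean ± SD). Macrophage content and genotype therefore cannot be told apart in that fit. The part of macrophages in the members' values was not tested further.
Markers of plasmacytoid dendritic cells, the strongest source of interferon alpha, summed to at most 9.28 CPM in any library, and those of T and NK cells to at most 6.95 CPM. B cell markers summed to at most 0.261 CPM and erythroid markers to at most 0.576 CPM. Neutrophil markers summed to 4.37 to 20.9 CPM in WT and 1.71 to 53.3 CPM in TauT KO, and endothelial markers to 2.48 to 17.6 and 7.54 to 157 CPM. These sums rest on few genes of each list. In TauT KO, Flt1 reached 120 CPM and Kdr 35.0 CPM, but Pecam1 at most 6.46 and Cdh5 at most 0.489 CPM. S100a8 reached 49.8 CPM in TauT KO female 4, while S100a9 had 4 counts over all libraries.

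**Figure D4:**
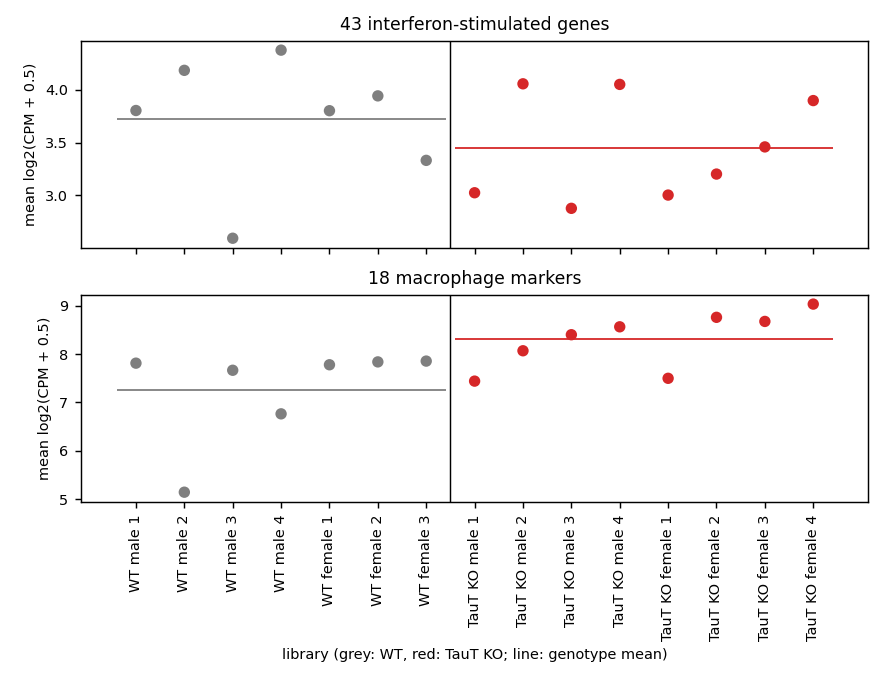
The mean log2(CPM + 0.5) per library is plotted for the 43 interferon-stimulated genes (top) and for 18 macrophage markers (bottom), grey for WT and red for TauT KO, with a line at each genotype's mean. The member means overlap between genotypes (2.59 to 4.38 in WT and 2.88 to 4.06 in TauT KO), and WT male 2 has the lowest macrophage mean.

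The members were also compared without 1 library of each close pair. Without the male-labelled libraries numbered 1, 32 of 42 members tested were below 0 with a median log2 fold change of -0.29, and 0 of these changed sign. Without the female-labelled libraries numbered 1 there were 31 of 43 below 0, Irf9 changed sign and the median was -0.21, nearer 0 than the -0.35 of all 15 libraries. Without the 3 libraries at odds with their sex label there were 31 of 43 with a median of -0.34, and Ifitm1 changed sign. edgeR called 0 members in all 3 settings, and of all genes it called 0 lower and 2, 7 and 0 higher. At an unadjusted p under 0.05 there were 4 members lower in each setting, against 12.3%, 10% and 9.27% of all genes, and 3, 4 and 3 higher, against 10.5%, 10.7% and 9.94%.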

How the data were processed

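RNA of 15 MSC cultures was made into cDNA by oligo-dT priming and template switching (SMART-Seq mRNA LP). The authors deposited raw counts per gene, made with fastp 0.23.1, STAR 2.7.9a and featureCounts (Subread 2.0.1, reverse-strand setting) on GRCm39 with GENCODE M31. The labels do not say that the kit marks strand, so a member and an antisense partner may share reads.

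The counts were analysed in edgeR 4.0.16 (R 4.3.3) with TMM scaling, filterByExpr, labelled sex and genotype, and Benjamini-Hochberg adjustment over 17204 genes. Standard errors are the log2 fold change divided by the root of F. CPM use TMM library sizes. DESeq2 1.42.0 on all genes with a count and limma 3.58.1 were alternatives. With 200 of 17204 genes changed 4-fold in simulated data for 15 libraries, edgeR recovered 97% and called 8 unchanged genes, and DESeq2 98% and 43. The largest edgeR fold change of a member was 2.68 (Oas3), and recovery of changes smaller than 4-fold was not tested.

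The members and lists were chosen with earlier results of these data known. Values by library are given for called members, then the smallest p up to 12, and the highest mean CPM of each class; Stat2 and Rsad2 were added after their values were seen. Positions and exon lengths are from GENCODE M39. Figures were drawn with matplotlib 3.10.9. Protein sequences were not used here, and 1 pathway gene is not reported here.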

Additional observations from a re-analysis of the deposited data

Results flagged for a closer look

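Within each group of 4 libraries, a library was noted when its distance to the nearest of the others took up more than 0.829 of the group's range. Among 54 groups tested over 18 results, 3 were noted, where chance gives about 2.7. Irf1 was low in WT male 3, whose distance took up 0.897 of the range of the male-labelled WT libraries (33.6 CPM against 94.2 CPM or more). Irf1 was also high in TauT KO male 4, at 0.902 of the range (114 CPM against 40.2 CPM or less). Eif2ak2 was low in TauT KO male 3, at 0.853 of the range (34.5 CPM against 50.3 CPM or more).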

How the results depend on the processing

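The count of members called was 0 in both directions under upper-quartile scaling, no filter, at least 10 counts in every library, no term for labelled sex, the macrophage covariate and the 3 reduced sets of libraries. DESeq2 called 3 lower and 2 higher, voom 2 lower and 0 higher (4.12% and 3.55% of all genes). With each library left out in turn, edgeR called 0 to 4 members lower and 0 higher, and the 4 came from the fit without WT male 3 (0.75% of all genes called lower with all libraries, 4.88% without it). In these fits the members lower at an unadjusted p under 0.05 ran from 3 of 43 to 16 of 42. The 3 came without WT female 2 (10.1% of all genes) and the 16 without WT male 3 (15.5%). Without TauT KO male 2 there were 10 of 42 (13.6%). The macrophage covariate and the 3 reduced sets called at most 7 of all genes. The median log2 fold change of the members stayed below 0 in all of these fits, from -0.50 to -0.23 with 1 library left out and at -0.50 with voom.

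Only Isg15, Eif2ak2 and Psmb8 of the 16 members given by library changed sign. Isg15 was at 0.067 without WT male 4 (range -0.68 to 0.067 with 1 library left out), and Psmb8 at 0.021 without WT male 2 (range -0.23 to 0.021). With the macrophage covariate Eif2ak2 was at 0.026 and Psmb8 at 0.098. None of these values was called, and the cause was not tested. Among all members, 10 changed sign with the macrophage covariate, where 28 of 43 were below 0. Without WT male 4, 6 changed sign and 26 of 42 were below 0. With voom 5 changed sign and 37 of 43 were below 0.

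Replicate numbers were shared between genotypes within a label. Log2 levels of all genes tested, less the mean of each group, were correlated between same-numbered WT and TauT KO libraries. The correlations were 0.25, 0.25, 0.64 and 0.17 (male labels) and 0.31, 0.098 and -0.035 (female labels). Libraries with different numbers were not compared in this way, so whether the numbers pair the samples was not settled. With the replicate block within each label edgeR called 0 members and the median was -0.37. At an unadjusted p under 0.05 that fit had 13 of 43 members lower and 3 higher, against 12% and 12.1% of all genes. Blocks within the male-labelled and within the female-labelled libraries alone, chosen after seeing the data, also gave 0, as did leaving out each library within a label. Depth limits Mx1 most, with 0 counts in TauT KO female 1 and TauT KO female 2.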
